A study of Homo sapiens with 4 samples.

Results

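The human genome carries the microRNA (miRNA) genes of the miR-23, miR-27 and miR-24 families in a pair of paralogous clusters, MIR23A, MIR27A and MIR24-2 on chromosome 19 and MIR23B, MIR27B and MIR24-1 on chromosome 9. These 6 genes were located by symbol among the 7062 small RNA features counted in each library, and all 6 were found. The cells were of a human embryonic kidney line, given as HEK293T in the protocol and as HEK293, its parent line, in the sample tags. The cells had been transiently transfected with an EYFP-tagged, α-amanitin-resistant RPB1, the catalytic subunit of RNA polymerase II (Pol II), whose C-terminal domain held 52 heptad repeats. In 52X WT the repeats kept threonine at the fourth position, and in 52X T4A that residue was alanine, so it could not be phosphorylated. Both groups received 1.5 μg of plasmid per well and then 72 hours of α-amanitin at 2.5 μg/ml, a toxin that removes the endogenous enzyme. Each group had 2 libraries of 50-bp single-end reads, and all cells of a group came from transient transfection rather than from a clone. The comparison asked how the clusters differ between the forms of Pol II, and how one cluster differs from the other.

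A primary miRNA transcript is made by Pol II, cut in the nucleus by Drosha into hairpin precursors, and cut again in the cytoplasm by Dicer into a short duplex, one strand of which is loaded into an Argonaute protein. The loaded strand finds its mRNA targets mainly through the seed near its 5′ end. The hairpins of a cluster are thought to come from a shared primary transcript, and their mature levels are also set by processing, loading and decay. The clusters are known for roles in blood vessel growth, in muscle and fat cell differentiation and in the cell cycle. miR-27 is known to restrain lipid genes such as PPARG, miR-23 glutaminase, and miR-24 cell cycle genes.

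The mature sequences decide which reads can be told apart, so those from the 3′ arms, which are the usual guide strands, are shown first (RefSeq, GRCh38.p14). Capitals mark the seed (bases 2 to 8), and in the miR-23 and miR-27 pairs also the bases that differ between the paralogs or are present in only one of them.
hsa-miR-23a-3p: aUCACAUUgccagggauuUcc
hsa-miR-23b-3p: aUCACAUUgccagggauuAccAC
hsa-miR-27a-3p: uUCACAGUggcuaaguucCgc
hsa-miR-27b-3p: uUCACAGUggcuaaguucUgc
hsa-miR-24-3p: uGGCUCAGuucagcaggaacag

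Counted from the 5′ end, miR-23a-3p and miR-23b-3p differ over their 21 shared positions by U19A, and miR-23b-3p is 2 bases longer. miR-27a-3p and miR-27b-3p differ by C19U. MIR24-1 and MIR24-2 give the same miR-24-3p. The seeds are therefore identical within a family and differ between families. Among 2370 mature human miRNAs in the RefSeq table, the miR-23 seed was shared by 3 (miR-23a-3p, miR-23b-3p and miR-23c), the miR-27 seed by 3 (miR-27a-3p, miR-27b-3p and miR-9985) and the miR-24 seed by miR-24-3p alone.

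The 5′ arms are where the miR-24 loci differ, and both are shown with the seed in capitals.
hsa-miR-24-1-5p: uGCCUACUgagcugauaucagu
hsa-miR-24-2-5p: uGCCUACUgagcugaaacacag

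They differ at 6 of 22 positions, the first being U16A. The 5′ arms of the miR-23 paralogs differ at 7 of 22 positions and those of the miR-27 paralogs at 8 of 22. The longest run that the hairpins share is 27 bases for MIR24-1 and MIR24-2, which covers the whole of miR-24-3p, and 20 bases for MIR27A with MIR27B and for MIR23A with MIR23B. A count belongs to a hairpin gene, so the arms could not be separated in these data.

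The chromosome 19 cluster spans 373 bases, from 13836287 to 13836659 on the minus strand (read as GRCh38). It consists of MIR23A (ENSG00000207980.1, from 13836587 to 13836659), MIR27A (ENSG00000207808.1, from 13836440 to 13836517) and MIR24-2 (ENSG00000284387.1, from 13836287 to 13836359). All 3 lie within the long noncoding RNA gene MIR23AHG, and in the GENCODE v44lift37 annotation MIR23A and MIR27A overlap an exon of it on the same strand. The chromosome 9 cluster spans 881 bases, from 95085208 to 95086088 on the plus strand. It consists of MIR23B (ENSG00000207563.1, from 95085208 to 95085304), MIR27B (ENSG00000207864.3, from 95085445 to 95085541) and MIR24-1 (ENSG00000284459.1, from 95086021 to 95086088). All 3 lie within the protein-coding gene AOPEP, which encodes an aminopeptidase, and MIR23B and MIR27B fall in introns of AOPEP on the same strand. The exon or intron position of MIR24-1 and MIR24-2 was not analysed here. The map of the hairpins shows the same gene order in both clusters, with a wider gap before MIR24-1.

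**Figure D1:**
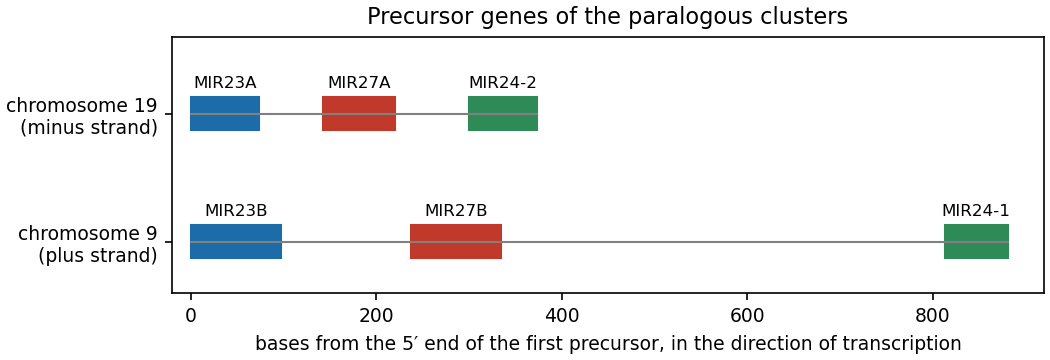
Positions of the 6 hairpin genes (boxes, to scale) in bases from the 5′ end of the first one, read in the direction of transcription. The chromosome 19 cluster spans 373 bases and the chromosome 9 cluster 881 bases.

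The counts totalled 16180790 and 27370127 with 52X T4A and 16195105 and 19159242 with 52X WT. The lowest count of any member in a library was 1088, for which counting error alone is 3.03%, so the spread between libraries, and not depth, limits what follows. No feature of these tables reports RPB1, so the labels were not checked against the construct. Of the miRNAs taken to mark the line, MIR10A, MIR10B, MIR17, MIR20A and MIR92A1 together reached 204140 and 226390 CPM (read counts scaled to a common effective library size) with 52X T4A and 260780 and 233820 CPM with 52X WT. Markers of other cells were lower, with summed levels of 209 to 275 CPM for 4 mesenchymal miRNAs, 0.253 to 0.947 CPM for the liver miRNA MIR122 and 1.45 to 3.97 CPM for the neuronal MIR124-1, and none of the markers was at 0 in all libraries. The 5 blood markers summed to 2.53 and 2.53 CPM with 52X T4A and 0.822 and 1.75 CPM with 52X WT, and the 3 muscle markers to 49.1 and 41.0 CPM against 15.3 and 16.6 CPM. Of the blood markers, MIR223, MIR144 and MIR451A overlapped between groups, and none exceeded 1.33 CPM. The endothelial miRNA MIR126 was at 96.1 and 98.8 CPM against 124 and 138 CPM.

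Whether the paralogous loci hold separate information was examined in the raw counts. MIR24-1 held 2885 and 5926 counts with 52X T4A and 2533 and 3543 with 52X WT. MIR24-2 held 2896, 5958, 2526 and 3554 in the same order. MIR24-1 minus MIR24-2 was thus −11, −32, 7 and −11 counts, whereas an even random split of their reads would give a difference with an SD of 71.1 to 109 counts. How reads with several matches were counted was not stated. The miR-24 loci therefore could not be told apart as separate measurements, and their values below are given for completeness.

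The same comparison for other loci that share a mature miRNA gave a mixed picture. Of 18 such pairs with a mean of at least 100 counts in a member, 10 were closer than an even random split in these libraries, and 10 agreed within 2% in every library. The closest was MIR199A1 with MIR199A2, with the same count in all 4 libraries, and the farthest was MIR125B1 with MIR125B2, which differed by up to 78.9%. MIR24-1 and MIR24-2, with a largest difference of 0.539%, stood with the former.

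The miR-27 loci were close in counts but not equal. MIR27A held 87380 and 207621 counts with 52X T4A and 109544 and 158780 with 52X WT. MIR27B held 97062, 226726, 120604 and 173626 in the same order, 8.80% to 10.5% more than MIR27A relative to their mean. MIR27B was the higher of the pair in every library.

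The miR-23 loci differed most. MIR23A held 1167 and 3186 counts with 52X T4A and 1088 and 1162 with 52X WT, and MIR23B held 1983, 5010, 1870 and 1876. MIR23B was higher in every library, by 44.5% to 52.9% of the mean of the pair. How many reads of these pairs were counted at both loci was not tested.

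In level, miR-27 dominated. The 6 members took 1.69% (95% Wilson interval 1.68% to 1.69%) and 2.20% (2.20% to 2.21%) of miRNA counts with 52X T4A, and 2.32% (2.31% to 2.32%) and 2.44% (2.43% to 2.44%) with 52X WT. These intervals cover counting error only, since the reads carry no molecular identifiers. They also treat each count as a separate read, which would not hold for reads counted at several loci. The means were 1.95% ± 0.367 for 52X T4A and 2.38% ± 0.0856 for 52X WT (SD, n = 2 here and for all group means). Both 52X WT libraries were above both 52X T4A libraries on this scale. As a percent of all counts the groups overlapped, at 1.20% and 1.66% with 52X T4A and 1.47% and 1.79% with 52X WT. For comparison, groups did not overlap in CPM for 40.1% of all features tested and for 48% of the miRNA features among them. Of the counts of the members, MIR27A and MIR27B together held 95.5% ± 0.141 in 52X T4A and 96.8% ± 0.288 in 52X WT. Among 1869 miRNA features, ordered by mean CPM, MIR27B ranked 21 and MIR27A 23, whereas MIR24-2 ranked 110, MIR24-1 111, MIR23B 132 and MIR23A 154.

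Levels of different genes were compared per length, as CPM per 100 bases of the annotated hairpin. Where reads fell within a hairpin was not analysed here. On this scale MIR27A was highest, with 7752 ± 956 for 52X T4A and 10216 ± 841 for 52X WT, followed by MIR27B at 6861 ± 764 and 9012 ± 698. MIR24-1 was at 272 ± 5.63 and 266 ± 15.2, and MIR24-2 at 255 ± 5.55 and 248 ± 15.2. MIR23B was at 146 ± 24.3 and 117 ± 20.8, and MIR23A at 120 ± 26.3 and 93.3 ± 12.4. The order of the families, miR-27 above miR-24 above miR-23, held in each of the 4 libraries on both scales. Per length, the replicate ranges of MIR27A and MIR27B overlapped in 52X T4A and not in 52X WT, and so did those of MIR23B and MIR23A, while those of MIR24-1 and MIR24-2 overlapped in 52X WT and not in 52X T4A. MIR27A exceeded MIR27B per length but not in CPM, because the MIR27B hairpin is annotated as 97 bases and that of MIR27A as 78.

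**Figure D2:**
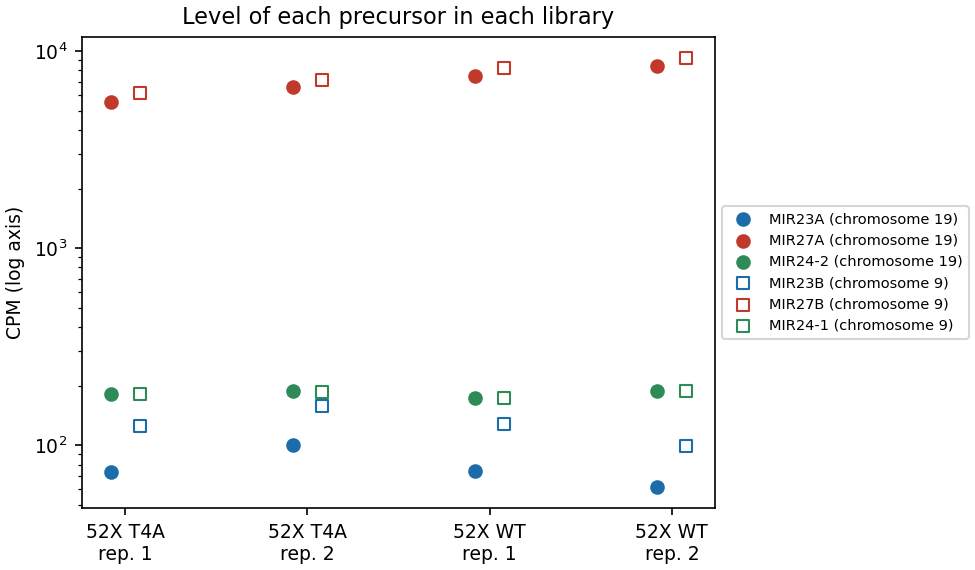
Level of each hairpin gene in each library in CPM on a log axis, with circles for the chromosome 19 cluster and squares for the chromosome 9 cluster. In every library the miR-27 loci sat between 5519 and 9221 CPM, the miR-24 loci between 173 and 189 CPM and the miR-23 loci between 61.7 and 159 CPM.

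In 52X T4A against 52X WT, miR-27 had lower values, miR-23 higher values and miR-24 nearly equal values, and none of the 6 members passed the test. A feature was called at a false discovery rate (FDR, Benjamini-Hochberg) under 0.05 and a fold change above 1.5 in the quasi-likelihood test of edgeR. Across all 1480 features tested, 0.135% were called in either direction (0.0676% higher and 0.0676% lower in 52X T4A), and of the members 0 of 6 were called. At an unadjusted p under 0.05 edgeR gave 0 of 6 members, beside 10.3% of all features. DESeq2 called 0 of 6 members, beside 3.42% of the 877 features for which it gave an adjusted p, and gave 0 of 6 at an unadjusted p under 0.05, beside 8.72% of 1480.

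miR-27, the abundant family, was the one whose groups did not overlap. MIR27A was at 5519 and 6574 CPM with 52X T4A and at 7505 and 8432 CPM with 52X WT. MIR27B was at 6131 and 7179 CPM against 8263 and 9221 CPM. For both, each 52X T4A library was below each 52X WT library. The log2 fold change was −0.40 ± 0.20 (SE) for MIR27A, or 0.759-fold, and −0.39 ± 0.19 for MIR27B, or 0.761-fold (edgeR, Benjamini-Hochberg adjusted p = 0.467 for each). Groups did not overlap for 40.1% of all features tested and for 48% of the miRNA features among them, and 21.2% of all features were lower in 52X T4A without overlap. The separation of the miR-27 loci, which have near-identical mature sequences, was thus a common one here. The endothelial marker MIR126 and the summed markers of the line, given above, were likewise lower in both 52X T4A libraries. The summed muscle markers and summed blood markers were higher, and the part of all these markers in the result was not tested. In cultured cells measured in bulk, fewer cells with a miRNA and less of it per cell cannot be told apart.

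miR-23 went the other way in value, with wide spread. MIR23A was at 73.7 and 101 CPM with 52X T4A and at 74.5 and 61.7 CPM with 52X WT, and MIR23B at 125 and 159 CPM against 128 and 99.6 CPM. The groups overlapped at both loci, since 52X T4A replicate 1 lay just below 52X WT replicate 1, while 52X T4A replicate 2 was highest and 52X WT replicate 2 lowest. The log2 fold change was 0.36 ± 0.29 (SE) for MIR23A and 0.32 ± 0.27 for MIR23B, with adjusted p-values of 0.637 and 0.661 (edgeR, Benjamini-Hochberg). When 52X T4A replicate 2 was left out these values were 0.13 and 0.15, and when 52X WT replicate 2 was left out they were 0.23 and 0.15.

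miR-24 was nearly level. MIR24-2 was at 183 and 189 CPM with 52X T4A and at 173 and 189 CPM with 52X WT, and MIR24-1 at 182 and 188 CPM against 174 and 188 CPM. The 4 libraries thus lay within a narrow range and the groups overlapped. The log2 fold change was 0.04 ± 0.24 (SE) for MIR24-2 and 0.03 ± 0.24 for MIR24-1 (edgeR, Benjamini-Hochberg adjusted p = 0.981 for each). Without 52X WT replicate 1 the sign of both turned, to −0.12. Over the members the median log2 fold change was 0.04, with 4 of 6 above 0, beside a median of −0.05 and 46.1% above 0 over all features tested. The median of the members lies between the miR-24 values, which are not separate measurements, so the 6 members are not taken as independent.

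**Figure D3:**
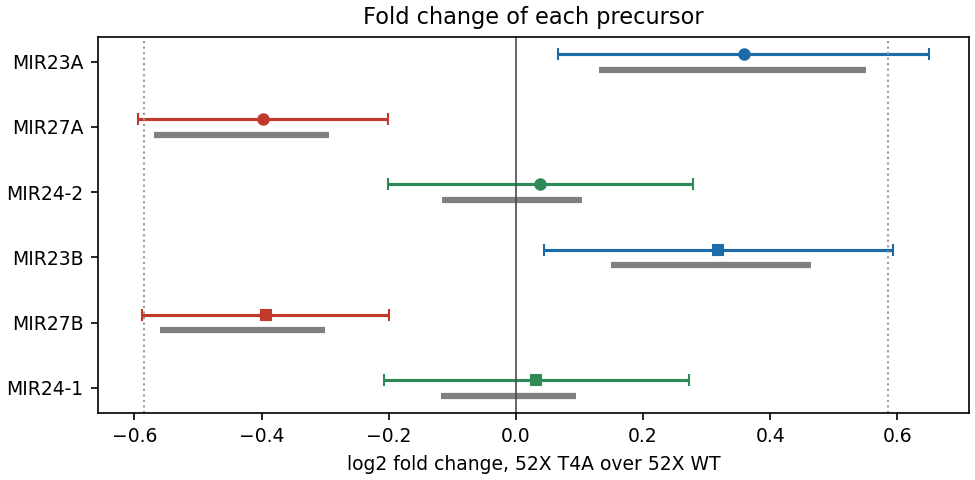
Log2 fold change of each hairpin gene in 52X T4A over 52X WT (points, bars ± SE from edgeR, circles for chromosome 19 and squares for chromosome 9), with grey bars for the range when each library was left out in turn and dotted lines at a 1.5-fold change. The miR-27 loci lie at −0.40 and −0.39, the miR-24 loci at 0.04 and 0.03, and the miR-23 loci at 0.36 and 0.32.

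The clusters were then compared directly, by the ratio of the chromosome 19 gene to its chromosome 9 paralog within each library, which does not depend on scaling. MIR23A over MIR23B was 0.589 and 0.636 with 52X T4A and 0.582 and 0.619 with 52X WT. MIR27A over MIR27B was 0.900 and 0.916 against 0.908 and 0.914, and MIR24-2 over MIR24-1 was 1.004 and 1.005 against 0.997 and 1.003. In counts, the chromosome 19 genes were below their paralogs in all 4 libraries for miR-23 and miR-27, and within 1% of them for miR-24. Per length, MIR27A was above MIR27B in all 4 libraries.

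On the log2 scale the difference of 52X T4A minus 52X WT was 0.03 for miR-23 (replicate SD 0.07), −0.0054 for miR-27 (0.0132), 0.0064 for miR-24 (0.0044) and −0.0073 for the cluster sums (0.0135). The exact two-sided permutation p-values over the 4 libraries were 0.667, 1.0, 0.333 and 0.667, or 0.889, 1.0, 0.889 and 0.889 after Benjamini-Hochberg adjustment over the 4 ratios. With 2 libraries against 2, 0.333 is the smallest p-value this exact test can give. The miR-24 ratios did not overlap between groups, but by margins of a few reads. A read counted at both loci of a pair carries no information on the cluster it came from, and the number of such reads was not tested.

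Across the libraries, the members grouped by family and not by cluster. The distance between profiles was taken as the root mean square difference of log2 CPM after each was centred on its own mean over the 4 libraries. It was 0.0045 for MIR24-2 with MIR24-1, 0.0098 for MIR27A with MIR27B and 0.0526 for MIR23A with MIR23B. Between neighbours on chromosome 19 it was 0.411 for MIR23A with MIR27A, 0.253 for MIR23A with MIR24-2 and 0.233 for MIR27A with MIR24-2. On chromosome 9 it was 0.404 for MIR23B with MIR27B, 0.246 for MIR23B with MIR24-1 and 0.225 for MIR27B with MIR24-1. The plot of centred profiles shows miR-27 as the lowest family in both 52X T4A libraries, and miR-23 as the highest in 52X T4A replicate 2 but near its mean in 52X T4A replicate 1. These distances are a description, and those within a family include reads that may have been counted at both loci.

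**Figure D4:**
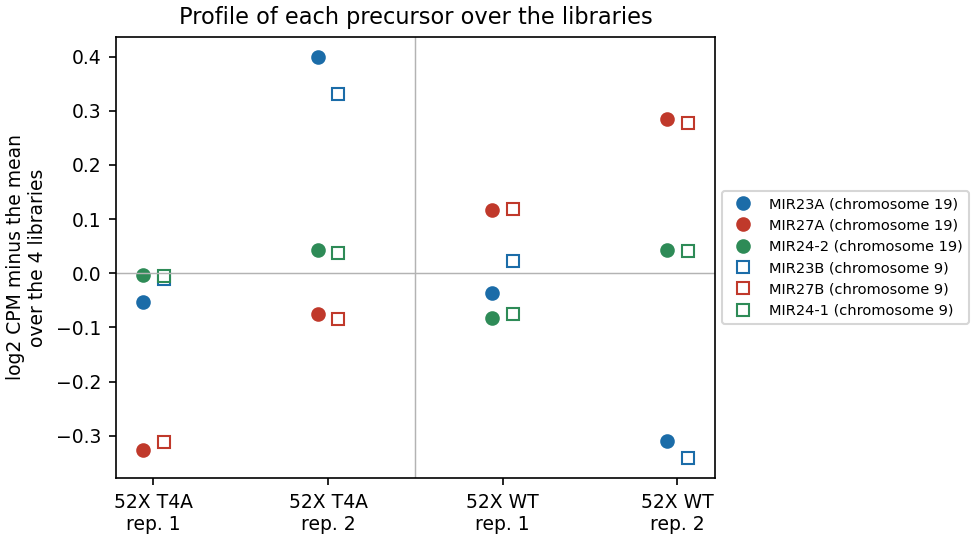
Log2 CPM of each hairpin gene minus its own mean over the 4 libraries, by library, with circles for chromosome 19 and squares for chromosome 9. Symbols of one family nearly coincide (distances of 0.0045 to 0.0526), while families of one cluster lie apart (0.225 to 0.411).

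The families of a cluster were also set against each other as ratios within each library. These ratios were chosen after the values of the members had been seen and restate them on a scale free of library scaling, so they are given as a description with no test. MIR27A over MIR23A was 74.9 and 65.2 with 52X T4A and 101 and 137 with 52X WT, with means of 70.0 ± 6.87 and 119 ± 25.4. MIR27B over MIR23B was 48.9 and 45.3 against 64.5 and 92.6, with means of 47.1 ± 2.61 and 78.5 ± 19.8. In both clusters each 52X T4A library lay below each 52X WT library. Groups did not overlap in CPM for 40.1% of all features tested, and the share over comparable ratios was not computed. The marker MIR126 and the summed markers of the line were also lower in both 52X T4A libraries. The summed muscle markers and summed blood markers were higher, and the part of all these markers was not tested.

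The log2 difference of 52X T4A minus 52X WT was −0.75 for the chromosome 19 pair (replicate SD 0.24) and −0.72 for the chromosome 9 pair (0.27). Leaving out each library in turn gave −0.97 to −0.53 on chromosome 19 and −0.98 to −0.45 on chromosome 9, the values nearest 0 being those without 52X WT replicate 2.

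The ratios of miR-27 to miR-24 were MIR27A over MIR24-2 at 30.2 and 34.8 with 52X T4A and 43.4 and 44.7 with 52X WT, and MIR27B over MIR24-1 at 33.6 and 38.3 against 47.6 and 49.0. The groups did not overlap, as was so in CPM for 40.1% of all features tested, and the share over comparable ratios was not computed. The log2 differences were −0.44 (replicate SD 0.11) and −0.43 (0.095).

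miR-24 over miR-23 overlapped between groups. MIR24-2 over MIR23A was 2.48 and 1.87 with 52X T4A and 2.32 and 3.06 with 52X WT, and MIR24-1 over MIR23B was 1.45 and 1.18 against 1.35 and 1.89. The log2 differences were −0.31 and −0.29, with a replicate SD of 0.28 for both. Leaving out a library moved the first from −0.51 (without 52X T4A replicate 1, or without 52X WT replicate 1) to −0.10 (without 52X T4A replicate 2) and −0.11 (without 52X WT replicate 2). The second moved from −0.53 (without 52X WT replicate 1) and −0.44 (without 52X T4A replicate 1) to −0.14 (without 52X T4A replicate 2) and −0.046 (without 52X WT replicate 2). Ratios of the paralogous clusters are not taken as independent of each other, since how reads with several matches were counted was not stated.

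**Figure D5:**
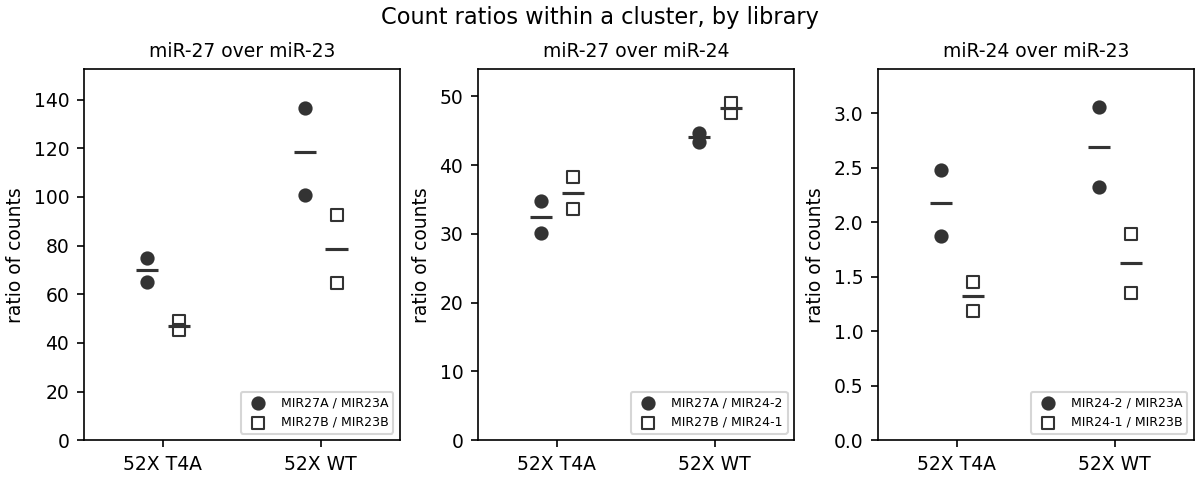
Ratio of counts between families of one cluster in each library (circles chromosome 19, squares chromosome 9, bars for group means). miR-27 over miR-23 and miR-27 over miR-24 lie lower in both 52X T4A libraries than in both 52X WT libraries, while miR-24 over miR-23 overlaps. In CPM, groups did not overlap for 40.1% of all features tested.

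The relatives and neighbours of the clusters were read from the same fit, and none was called. MIR23C, on the X chromosome from 20017088 to 20017187, encodes a miR-23 with the same seed.
hsa-miR-23c: aUCACAUUgccagugauuaccc

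Relative to miR-23a-3p it carries G14U and U19A, and the longest run it shares with either miR-23 hairpin is 13 bases. Its levels were 26.5 and 36.9 CPM with 52X T4A and 27.1 and 21.2 CPM with 52X WT, in the same order of libraries as MIR23A. The ratio of MIR23C to MIR23A was 0.359 and 0.365 in 52X T4A and 0.363 and 0.344 in 52X WT, so it varied little. Whether these reads came from the X chromosome locus or were miR-23a and miR-23b reads placed there was not tested. The log2 fold change of MIR23C was 0.39 ± 0.32 (SE; edgeR, Benjamini-Hochberg adjusted p = 0.644).

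MIR3074, a miRNA gene on chromosome 9 from 95086014 to 95086094, lies opposite MIR24-1 on the minus strand and covers it. It was at 8.91 and 9.25 CPM with 52X T4A and at 9.45 and 9.98 CPM with 52X WT, far below the 174 to 188 CPM of MIR24-1. Its counts of 138 to 292 went with a log2 fold change of −0.10 ± 0.32 (SE; edgeR, Benjamini-Hochberg adjusted p = 0.957). Whether strand was used in counting was not stated, so reads of such an overlapping pair are uncertain.

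MIR181C and MIR181D lie on the opposite strand of chromosome 19, from 13874699 to 13874808 and from 13874875 to 13875011, in a separate cluster of another miRNA family. MIR181C was at 11.5 and 14.9 CPM in 52X T4A and 16.9 and 13.9 CPM in 52X WT, and MIR181D at 415 and 305 CPM against 379 and 433 CPM. The groups overlapped for both, with log2 fold changes of −0.22 ± 0.33 and −0.17 ± 0.25 (SE; edgeR, Benjamini-Hochberg adjusted p = 0.831 and 0.825).

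The miRNA features most like each member were found by the same distance among 308 candidates with a mean of at least 100 counts. For MIR23A they were MIR23C (0.0334) and MIR140 (0.0532), and for MIR23B they were MIR140 (0.0379) and MIR23C (0.0577). For MIR27A they were MIR1307 (0.0378) and MIR671 (0.041), and for MIR27B the same 2 features, MIR671 (0.0395) and MIR1307 (0.0408). MIR589 (0.0134 and 0.0098) and MIR378C (0.0292 and 0.0323) were nearest to MIR24-2 and MIR24-1. The median distance of the candidates was 0.361 from MIR23A, 0.287 from MIR27A and 0.229 from MIR24-2.

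MIR140, a miRNA prominent in cartilage, was far more abundant than the miR-23 loci, at 1639 and 2035 CPM with 52X T4A and 1614 and 1348 CPM with 52X WT. MIR1307 was at 182 and 218 CPM in 52X T4A against 264 and 289 CPM in 52X WT, with a log2 fold change of −0.47 ± 0.24 (SE; edgeR, Benjamini-Hochberg adjusted p = 0.467). MIR1307 and MIR671 were picked for profiles like those of the miR-27 loci in these libraries. Their lower values in both 52X T4A libraries follow from that choice. None of these features was called, and likeness over 4 libraries is a description only.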

How the data were processed

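Total RNA of the transfected cells was made into small RNA libraries, 2 for each form of RPB1, with 16180790 to 27370127 counts. The authors deposited raw read counts per small RNA feature for each library, not normalized. The submitters' processing notes name cutadapt 4.6, Bowtie2 2.3.5.1, featureCounts 1.5.0 and hg38, and settings, strand and the handling of reads with several matches are not given in the sources used here. Reads kept at every locus they match would raise counts of paralogs and make them alike.

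Features were named by Ensembl identifier from GENCODE v44lift37 (4 members) or by identical position in RefSeq GRCh38.p14 (the other 2 members, MIR24-1 and MIR24-2), and all 6 members lay at the RefSeq position of that symbol. Coordinates are those of the deposited tables, and exon or intron positions were read within the annotation's own build. Sequences are from RefSeq.

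Counts were tested with edgeR v4.0.16 under R v4.3.3 (filterByExpr at a minimum count of 10, TMM factors, quasi-likelihood F test, group as the only term), with Benjamini-Hochberg adjustment over 1480 features, which held 99.97% of counts. CPM used TMM-scaled library sizes. The SE is the log2 fold change divided by the square root of F. Ratios and shares were computed on counts. The series text speaks of biological replicates but names no separate cultures, so p-values measure the spread between these libraries, which may be technical. On simulated data the test recovered 18.1% of features changed 2-fold and 89.2% of those changed 4-fold. The changed features were drawn from all those tested, and among such features changes smaller than 2-fold would often be missed. The members changed by less than 2-fold, and recovery at their counts was not tested. The alternatives covered scaling, filter, DESeq2 v1.42.0, the replicate number as a block, removal of the 5 most abundant features outside the clusters, and each library left out.

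The members and lists were chosen with earlier results of these data known. Features named were the 6 members, MIR23C, MIR3074, MIR181C and MIR181D, the 2 miRNA features nearest to each member, and pairs of loci with a common mature miRNA, of which the closest and farthest were named. The markers of the line and of other cells came from a fixed list.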

Additional observations from a re-analysis of the deposited data

How the results depend on the processing

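No member was called under any of 13 alternatives each. Of 78 comparisons of a member with an alternative, 76 kept their direction and 2 turned, MIR24-2 and MIR24-1 without 52X WT replicate 1. With each library left out in turn, where a lone library is assumed to vary like the other group, MIR24-2 ran from −0.12 to 0.10 and MIR24-1 from −0.12 to 0.094, MIR23A from 0.13 to 0.55, MIR23B from 0.15 to 0.46, MIR27A from −0.57 to −0.29 and MIR27B from −0.56 to −0.30. With all 4 libraries MIR27A ran from −0.40 to −0.21 and MIR23A from 0.35 to 0.56, and the adjusted p-values (edgeR and DESeq2) of MIR27A over its alternatives ran from 0.348 to 0.945. The median of the members, 0.04, became 0.20 with upper quartile factors and 0.21 with library size alone, which moved the median of all features from −0.05 to 0.13 and 0.14, and ran from −0.12 to 0.10 with a library left out. The difference in the members' share of miRNA counts was −0.43 points. It was −0.20 as a percent of all counts, and −0.925 with the 5 most abundant features outside the clusters removed from the denominator. With a library left out it ran from −0.69 without 52X T4A replicate 2 to −0.17 without 52X T4A replicate 1.

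Over all features the 2 calls became 9 with library size alone, 29 with no filter on low counts, 30 with DESeq2 and 18 with the replicate number as a block, and 4 to 218 with a library left out, the highest without 52X WT replicate 2. Deviations from the group means correlated at 0.095 between libraries with the same number, so the numbers are not known to pair them. Under the block MIR27A was −0.40 (adjusted p = 0.387, edgeR) and no member was called. For these, the cause was not tested.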
